A study of Homo sapiens with 6 samples.

Results

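The genes described here are 10 members of the insulin and insulin-like growth factor (IGF) signalling system in T24 cells: the receptors IGF1R, IGF2R and INSR, the receptor substrates IRS1 and IRS2, and the binding proteins IGFBP2, IGFBP3, IGFBP4, IGFBP6 and IGFBP7. They were taken by gene symbol from a count table of 78932 genes, and 9 of the 10 had enough reads to be tested among 18474 genes. T24 is a line from a human urothelial carcinoma of the bladder. The cells received either a control siRNA (siNC, n = 3) or an siRNA against TRIM28 (siTRIM28, n = 3) with a transfection reagent, in medium with serum and antibiotics, and polyadenylated RNA was sequenced with a stranded kit. TRIM28 is a co-repressor that zinc finger proteins bring to chromatin, and a SUMO ligase. The labels place all 6 libraries in batch 1, describe the replicates of each group as biological and give neither the time after transfection nor the siRNA sequence used. They do not say whether replicates were transfected separately, so the p-values measure only the spread between these libraries.

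IGF1, IGF2 and insulin act through receptor tyrosine kinases. IGF1R and INSR phosphorylate the docking proteins IRS1 and IRS2, which recruit phosphoinositide 3-kinase (PI3K). In this way AKT and the mTOR complexes are activated and the FOXO transcription factors are inhibited. IGF2R has no kinase: it carries IGF2 to lysosomes for breakdown and also sorts enzymes that bear mannose 6-phosphate. The IGFBPs are secreted proteins that hold IGFs outside the cell, prolong their life and limit or direct their access to IGF1R.

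TRIM28 itself had 1419, 1393 and 1382 reads in the siNC libraries and 130, 96 and 109 in the siTRIM28 libraries, a log2 fold change of -3.54 (SE 0.0723). The libraries held 11712623 to 14018052 counted reads. Within siNC, replicate 3 stood apart from the other two, and within siTRIM28, replicate 1 did. Over genes, the chi-square of counts per degree of freedom was 1.08 between siNC replicates 1 and 2 and at least 4.44 for pairs with replicate 3, and it was 1.24 between siTRIM28 replicates 2 and 3 and at least 6.28 for pairs with replicate 1. Read sampling alone gives about 1, so the close pairs differed little beyond it. Whether they are independent replicates cannot be told, and n = 3 may overstate the replication. With each close pair summed, 5935 genes were called, against 7723. Of the urothelial markers, UPK1B and KRT20 had no reads in any library, UPK2 at most 7 and UPK3A at most 1, while UPK1A had 4 to 17 reads in siNC and 34 to 58 in siTRIM28. The epithelial keratins KRT8 and KRT18 were present at 104 and 86.1 CPM in siNC (reads of a gene per 1000000 counted reads, after TMM scaling of the libraries), whereas EPCAM, KRT19, CDH1 and KRT5 had at most 7 reads. The mesenchymal marker VIM was at 1102 CPM in siNC and 1389 CPM in siTRIM28 (log2 fold change 0.33), and CDH2 was at 57.9 and 62.1 CPM and FN1 at 5.45 and 6.84 CPM. The part of any shifts of these markers, those of UPK1A, VIM and FN1 among them, in the results below was not tested. Leukocyte PTPRC and CD3E, endothelial CDH5 and VWF and erythroid HBA1 and HBB had at most 4 reads, endothelial PECAM1 had 4 to 11, and CD68, also listed as a leukocyte marker, was at 348 and 351 CPM.

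After TRIM28 silencing, 3 of the 9 tested genes were higher (IGF2R, IGFBP2 and IGFBP3), 1 was lower (IGFBP4) and 5 did not pass the test (IGF1R, INSR, IRS1, IRS2 and IGFBP6), with a gene called where its p from the quasi-likelihood test of edgeR, adjusted after Benjamini and Hochberg over all genes, was under 0.05. The share called was 44.4% of the 9 genes, against 41.8% of all genes tested. In the higher direction 21.3% of all genes were called and in the lower direction 20.5%. A change of at least 0.58 on the log2 scale was reached by 2 of the genes, IGF2R and IGFBP3, both higher; of all genes 9.51% were called higher and 7.51% lower with a change of that size. The libraries of the 2 conditions did not overlap in 4 genes that lay higher and 3 that lay lower in siTRIM28, against 26.3% of all genes that lay higher and 25.7% that lay lower without overlap (52% in either direction). The median log2 fold change of the 9 genes was -0.02, and that of all genes was 0.02. In number and direction of calls the genes therefore stood near the background of this knockdown, and the results lie in which genes moved and by how much. In RNA from a whole culture, fewer cells that express a gene and less of its RNA per cell cannot be told apart.

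**Figure D1:**
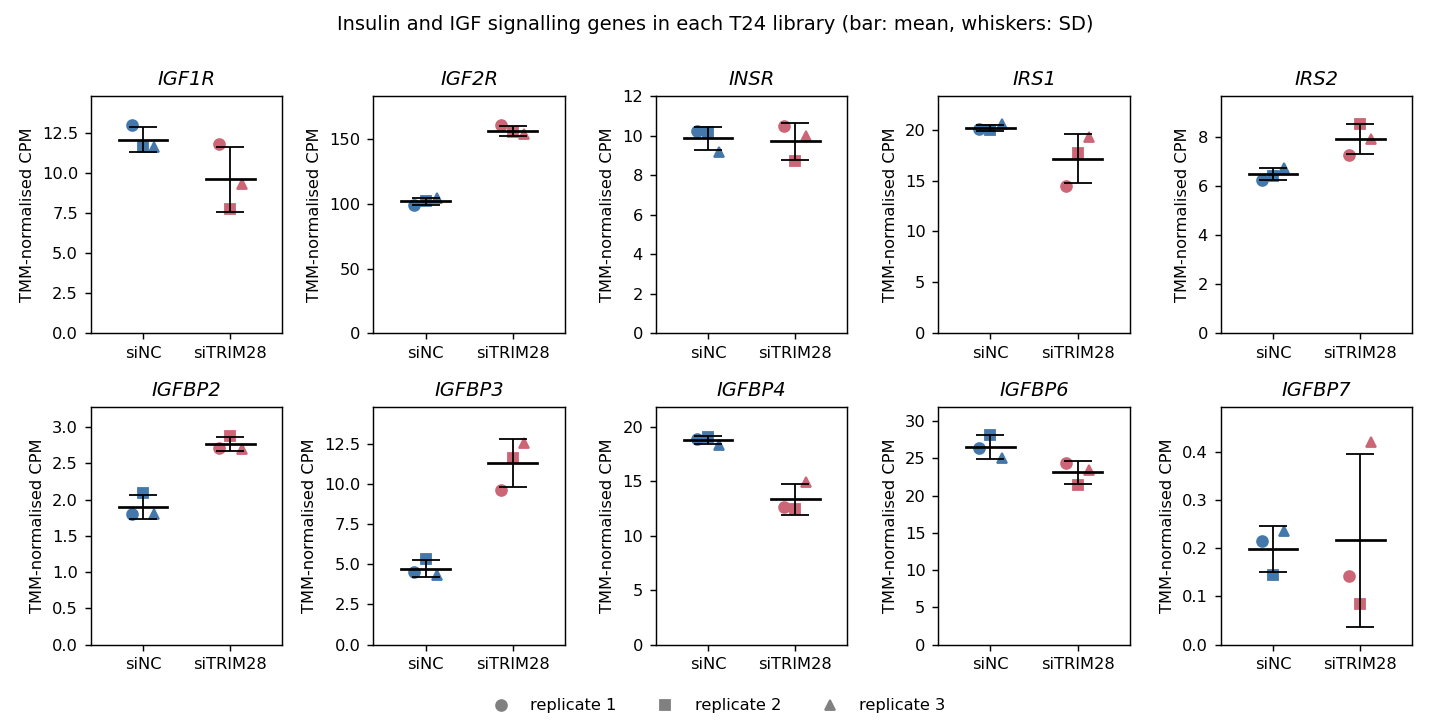
Level of each of the 10 genes in every library, in CPM after TMM scaling (vertical axes from 0), for siNC (blue) and siTRIM28 (red), with circles, squares and triangles for replicates 1, 2 and 3, bars for means and whiskers for SD (n = 3). The siTRIM28 points lie above all siNC points for IGF2R, IRS2, IGFBP2 and IGFBP3, and below them for IRS1, IGFBP4 and IGFBP6, and the groups overlap for IGF1R, INSR and IGFBP7.

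**Figure D2:**
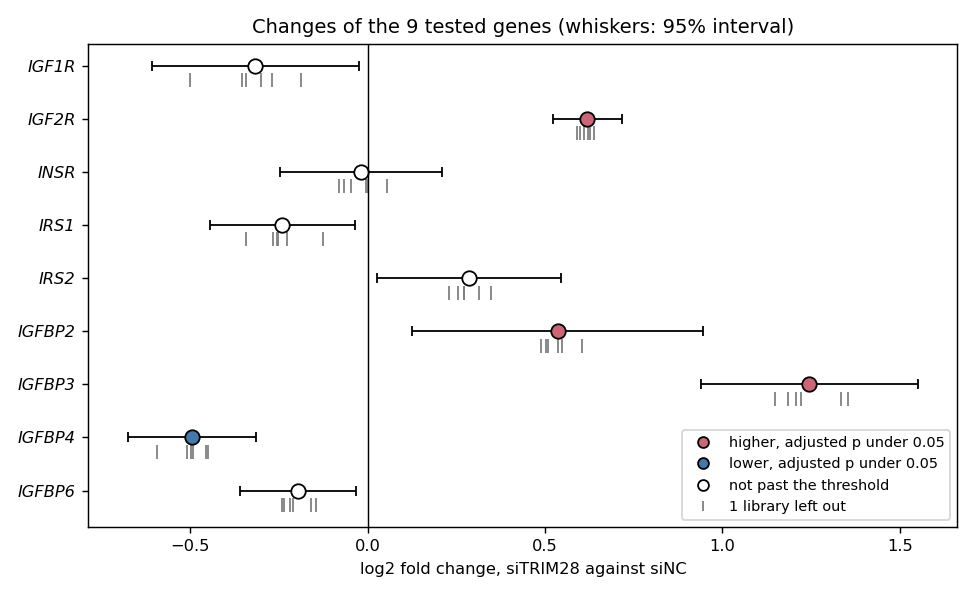
Fitted log2 fold change of siTRIM28 against siNC (horizontal axis) for the 9 tested genes, with 95% intervals as whiskers, filled points for genes past the adjusted p threshold of edgeR's test, and small ticks for the value with each library left out in turn. IGFBP3 at 1.24 and IGF2R at 0.62 lie farthest to the right and IGFBP4 at -0.50 farthest to the left.

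Among the receptors, IGF2R, the clearance receptor of IGF2, rose, while the kinase receptors IGF1R and INSR did not pass the test. IGF2R (ENSG00000197081, GRCh38 chr6:159969082-160113507, plus strand) had 99.1, 102 and 105 CPM in the siNC libraries and 161, 155 and 154 CPM in the siTRIM28 libraries. All 3 siTRIM28 libraries lay above all siNC libraries, and the coefficient of variation was 2.79% and 2.44%. The means were 102 ± 2.84 and 157 ± 3.82 CPM (SD, n = 3), a 1.54-fold rise with a log2 fold change of 0.62 (SE 0.0444, 95% interval 0.52 to 0.72, edgeR adjusted p = 7.69e-07). It stayed between 0.59 and 0.65 in all 16 alternative analyses and passed the threshold in each. IGF2R was the most deeply covered of the 10 genes, with 1337 to 2255 reads per library.

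IGF1R (ENSG00000140443, chr15:98648539-98957292, plus strand), the receptor tyrosine kinase for IGF1 and IGF2, had 13.0, 11.6 and 11.6 CPM in siNC and 11.8, 7.77 and 9.29 CPM in siTRIM28. Replicate 1 of siTRIM28 lay within the siNC values and the other two lay below them, so the groups overlapped. The means were 12.1 ± 0.776 and 9.61 ± 2.03 CPM (SD, n = 3), with a log2 fold change of -0.32 (SE 0.133, 95% interval -0.61 to -0.02), and the edgeR adjusted p of 0.0775 missed the threshold. The value turned on single siTRIM28 libraries: without replicate 1 it was -0.50 (edgeR adjusted p = 0.00135) and without replicate 2 it was -0.19 (edgeR adjusted p = 0.255). Testing all genes with any read gave an edgeR adjusted p of 0.0201, whereas DESeq2 gave an adjusted p of 0.126 and edgeR with the closest pairs of libraries summed gave 0.237.

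INSR (ENSG00000171105, chr19:7112255-7294414, minus strand), the insulin receptor, was at 10.2, 10.2 and 9.17 CPM in siNC and 10.5, 8.70 and 9.97 CPM in siTRIM28. The values of the groups were intermixed. The log2 fold change was -0.02 with a 95% interval of -0.25 to 0.21 (edgeR adjusted p = 0.912), so that a change beyond this interval in either direction was not found, and smaller ones were not detectable at 103 to 147 reads per library.

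The balance between receptors shifted towards IGF2R. In CPM per kilobase of exon (RPKM), the 3 receptors summed to 6.29 ± 0.0287 in siNC and 8.52 ± 0.371 in siTRIM28 (SD, n = 3). IGF2R made up 71.8 ± 1.67% of that sum in siNC and 81.4 ± 1.91% in siTRIM28, with no overlap between libraries (70.1 to 73.4% against 79.7 to 83.5%). IGF1R went from 13.8 ± 0.945% to 8.06 ± 1.35% and INSR from 14.5 ± 0.928% to 10.5 ± 0.666%. Such shares fall when IGF2R rises, even at a constant level: INSR itself was at 0.910 RPKM in siNC and 0.897 RPKM in siTRIM28. The log2 ratio of IGF2R to IGF1R was 0.96 higher in siTRIM28 than in siNC, and that of INSR to IGF1R was 0.32 higher, both without overlap between groups. Each reached p = 0.1 in an exact two-sided permutation test over libraries (adjusted p = 0.1 over 3 ratios), the smallest p that 3 libraries against 3 can give, so this test could not pass 0.05. The gap for INSR to IGF1R was narrow, with log2 ratios up to -0.189 in siNC and from -0.164 in siTRIM28.

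**Figure D3:**
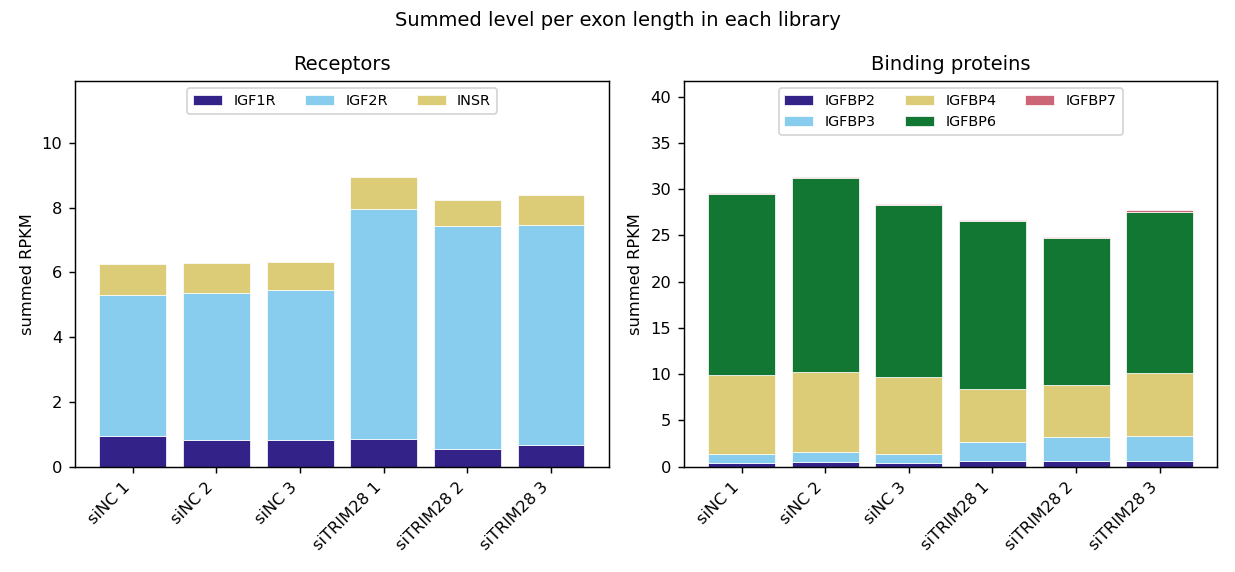
Summed RPKM (vertical axes from 0) of the 3 receptors (left) and the 5 binding proteins (right) in each of the 6 libraries, with each gene as a coloured segment. The receptor sum is 6.26 to 6.31 in siNC and 8.23 to 8.94 in siTRIM28 with IGF2R as its largest segment, and the binding protein sum is 28.3 to 31.3 in siNC and 24.8 to 27.8 in siTRIM28 with IGFBP6 as its largest segment.

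The docking proteins IRS1 and IRS2 lay in opposite directions, and neither passed the test. IRS1 (ENSG00000169047, chr2:226731312-226795246, minus strand), the substrate that couples both kinase receptors to PI3K, had 20.0, 20.0 and 20.5 CPM in siNC and 14.5, 17.7 and 19.3 CPM in siTRIM28. All siTRIM28 values were below the siNC values, but they ranged more widely (coefficient of variation 14.2% against 1.52%). The log2 fold change was -0.24 (SE 0.0935, 95% interval -0.45 to -0.04, edgeR adjusted p = 0.0579), and it depended on single siTRIM28 libraries, with -0.34 without replicate 3 (edgeR adjusted p = 0.0162) and -0.13 without replicate 1 (edgeR adjusted p = 0.228). Testing all genes with any read gave an edgeR adjusted p of 0.0361, and DESeq2 gave an adjusted p of 0.153. The start of the IRS1 gene overlaps ENSG00000272622 on the opposite strand, which had a mean of 101.5 reads and a log2 fold change of 0.03. Since it is not stated that the counting used strand, reads in the stretch they share may not have been assigned reliably.

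IRS2 (ENSG00000185950, chr13:109752695-109786583, minus strand), the other widely expressed substrate, had 6.26, 6.43 and 6.74 CPM in siNC and 7.28, 8.53 and 7.94 CPM in siTRIM28. Here all siTRIM28 values were above the siNC values. The log2 fold change was 0.29 (SE 0.119, 95% interval 0.03 to 0.55, edgeR adjusted p = 0.0737), and upper-quartile scaling gave 0.32 with an edgeR adjusted p of 0.0489, while DESeq2 gave 0.28 with an adjusted p of 0.258. IRS2 made up 28.3 ± 0.484% of the RPKM of both substrates in siNC and 36.3 ± 2.38% in siTRIM28 (SD, n = 3), while their sum was 2.81 ± 0.0594 and 2.68 ± 0.300 RPKM and overlapped between groups. The log2 ratio of IRS2 to IRS1 was 0.52 higher in siTRIM28, with no overlap and again the smallest possible p of 0.1 in the exact permutation test (adjusted p = 0.1 over 3 ratios).

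The binding proteins moved apart. IGFBP3 showed the largest change of the 9 tested genes. IGFBP3 (ENSG00000146674, chr7:45912245-45921874, minus strand), the main carrier of IGFs in serum and a growth inhibitor in many cultured cells, had 63, 74 and 55 reads in siNC and 135, 138 and 149 reads in siTRIM28. In CPM this was 4.54, 5.34 and 4.31 against 9.64, 11.7 and 12.6, with all siTRIM28 libraries above all siNC libraries. The means of 4.73 ± 0.543 and 11.3 ± 1.50 CPM (SD, n = 3) corresponded to a 2.37-fold rise, with a log2 fold change of 1.24 (SE 0.140, 95% interval 0.94 to 1.55, edgeR adjusted p = 2.66e-05). The value lay between 1.15 and 1.35 over the 16 alternatives and passed the threshold in each.

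IGFBP4 (ENSG00000141753, chr17:40443450-40457725, plus strand), a binding protein that mostly inhibits IGF action until it is cleaved, fell. It had 18.9, 19.1 and 18.3 CPM in siNC and 12.6, 12.4 and 14.9 CPM in siTRIM28, so that all siTRIM28 libraries lay below all siNC libraries. The means were 18.8 ± 0.372 and 13.3 ± 1.40 CPM (SD, n = 3), 1.41-fold lower, with a log2 fold change of -0.50 (SE 0.0824, 95% interval -0.68 to -0.31, edgeR adjusted p = 0.000514). Over the 16 alternatives the log2 fold change was -0.59 to -0.45 and the gene was called in each.

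IGFBP2 (ENSG00000115457, chr2:216632828-216664409, plus strand), a binding protein often raised in tumours, was called higher on few reads. It had 25, 29 and 23 reads in siNC and 38, 34 and 32 in siTRIM28, and the groups did not overlap. The log2 fold change was 0.54 (SE 0.187, 95% interval 0.13 to 0.95, edgeR adjusted p = 0.0380). The call was lost in 11 of 16 alternatives, among them each of the 6 analyses with 1 library left out (log2 fold change 0.49 to 0.60, edgeR adjusted p = 0.0573 to 0.112) and DESeq2 (adjusted p = 0.197).

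IGFBP6 (ENSG00000167779, chr12:53097436-53102340, plus strand), which binds IGF2 in preference to IGF1, had 26.4, 28.2 and 25.0 CPM in siNC and 24.4, 21.5 and 23.5 CPM in siTRIM28. All siTRIM28 values were below the siNC values by a small margin. The log2 fold change was -0.20 (SE 0.0744, 95% interval -0.36 to -0.03) and its edgeR adjusted p of 0.0528 missed the threshold, which was passed without siTRIM28 replicate 1 (-0.24, edgeR adjusted p = 0.00895) and with RLE scaling (-0.20, edgeR adjusted p = 0.0449). It was missed in the other alternatives, with adjusted p up to 0.167 (DESeq2). IGFBP7 (ENSG00000163453, chr4:57030773-57110385, minus strand), which binds IGFs weakly, had 3, 2 and 3 reads in siNC and 2, 1 and 5 in siTRIM28 and was not tested. It overlaps POLR2B on the opposite strand, which had a mean of 1091.5 reads.

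Per exon length, IGFBP6 supplied most of the measured binding protein RNA in both conditions, at 66.2 ± 0.703% of the summed RPKM in siNC and 65.1 ± 2.73% in siTRIM28 (SD, n = 3). The share of IGFBP3 went from 3.47 ± 0.232% to 9.38 ± 1.28%, and that of IGFBP4 from 28.6 ± 0.872% to 22.9 ± 1.45%, both without overlap between the groups. IGFBP2 made up 1.35 ± 0.0657% and 2.22 ± 0.204%. The sum over the 5 genes was 29.7 ± 1.46 RPKM in siNC and 26.4 ± 1.51 RPKM in siTRIM28.

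Ordered by RPKM in siNC, the level was 19.7 for IGFBP6, 8.51 for IGFBP4, 4.51 for IGF2R, 2.01 for IRS1, 1.04 for IGFBP3, 0.910 for INSR, 0.865 for IGF1R, 0.794 for IRS2, 0.401 for IGFBP2 and 0.103 for IGFBP7. The ranges of IGFBP3 and INSR, and of INSR and IGF1R, overlapped between libraries, and the other neighbours were separate. IGFBP6 lay above 87.9% of all tested genes in siNC RPKM, IGF2R above 62.0%, IGF1R above 23.2% and IGFBP2 above 11.4%. In siTRIM28 the order was 17.2 for IGFBP6, 6.93 for IGF2R, 6.05 for IGFBP4, 2.47 for IGFBP3, 1.71 for IRS1, 0.971 for IRS2, 0.897 for INSR, 0.690 for IGF1R, 0.583 for IGFBP2 and 0.112 for IGFBP7. IGF2R thus stood above IGFBP4 and IGFBP3 above IRS1, the reverse of siNC, and in both cases the ranges were separate (6.80 to 7.12 against 5.63 to 6.78 RPKM, and 2.11 to 2.75 against 1.45 to 1.92 RPKM). Those of IRS2 and INSR, of INSR and IGF1R, and of IGF1R and IGFBP2 overlapped. The order between genes rests on the exon length in the count table, 22613 bases for IGF2R and 2205 for IGFBP4. Which transcripts these cells make was not examined, and IGF2R and IGFBP4 were separated only narrowly.

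**Figure D4:**
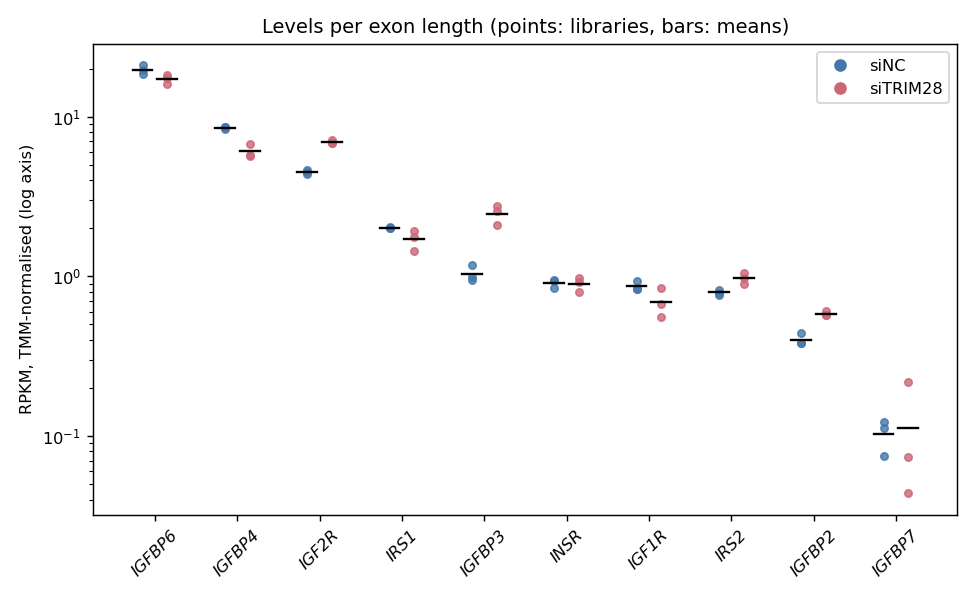
Level of the 10 genes per exon length, in RPKM after TMM scaling on a logarithmic vertical axis, ordered by the siNC mean, with a point per library (blue siNC, red siTRIM28) and a bar at each mean. IGFBP6 is at 19.7 and 17.2 RPKM at the left and IGFBP7 at about 0.1 RPKM at the right; IGF2R and IGFBP4 change places between the conditions.

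The sequences upstream of the 3 genes called in every alternative are shown because these genes carry the changes described above. Each is the 250 bases before the RefSeq start site in GRCh38.p14, on the strand of the gene, 5' to 3', with capitals for matches to any of 4 motifs, each searched on both strands. The E-box, the site of basic helix-loop-helix factors, was searched as CACGTG. For the TATA box, which places the start of transcription in some genes, the letters were TATAAA. The core site of FOXO factors was taken as GTAAACA. The insulin response element, found in genes that insulin represses, was taken as TGTTTTG. RefSeq windows were found for 9 of the 10 genes, and the motifs were chosen after the sequences had been read.
IGF2R, chr6:159968832-159969081, plus strand: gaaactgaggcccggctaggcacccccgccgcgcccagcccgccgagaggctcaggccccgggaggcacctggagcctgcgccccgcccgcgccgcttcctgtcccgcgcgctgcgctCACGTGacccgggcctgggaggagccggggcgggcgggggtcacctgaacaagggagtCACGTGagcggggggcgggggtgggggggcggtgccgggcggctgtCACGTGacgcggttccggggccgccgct
IGFBP3, chr7:45921273-45921522, minus strand: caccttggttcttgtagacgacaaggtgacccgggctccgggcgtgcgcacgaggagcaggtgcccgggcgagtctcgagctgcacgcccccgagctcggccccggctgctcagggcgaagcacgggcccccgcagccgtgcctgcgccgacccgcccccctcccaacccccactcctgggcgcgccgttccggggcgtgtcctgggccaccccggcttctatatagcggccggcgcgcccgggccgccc
IGFBP4, chr17:40443200-40443449, plus strand: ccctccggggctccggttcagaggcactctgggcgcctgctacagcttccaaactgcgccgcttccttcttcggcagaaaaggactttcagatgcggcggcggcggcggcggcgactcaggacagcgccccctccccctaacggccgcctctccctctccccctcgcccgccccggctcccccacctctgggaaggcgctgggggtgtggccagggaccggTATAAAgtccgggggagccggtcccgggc

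The window of IGF2R held 3 E-boxes, which began 132, 74 and 28 bases before the start site. At least 1 E-box was present in 6.34% of 35116 RefSeq windows of this length, and 3 or more in 28 of them (0.0797%). Of the 19 tested genes with 3 or more E-boxes, IGF2R itself included, 4 were called higher (21.1%) and 3 lower (15.8%). Of the tested genes with none, 22.4% were called higher and 24.4% lower. Whether the E-boxes have a part in the rise of IGF2R was not tested. IGFBP4 had a TATA box 29 bases before its start site, a motif in 10.7% of windows. In IGFBP3, whose RefSeq start site is 602 bases from the start of the gene in the count table, none of the 4 motifs was found in the exact letters searched. The letters tatata, near the end of its window, are not a match to TATAAA. Of the other windows, IRS2 had 1 insulin response element 40 bases before its start site (4.3% of windows) and IGFBP6 had 1 FOXO core site 186 bases before it (2.98%), and no motif was found for IGF1R, INSR, IGFBP2 and IRS1. The RefSeq start site of IRS1 lies 4574 bases from the start of the gene in the count table, and that of IGFBP6 lies 231 bases from it. A match shows only that the letters are present, and the lack of one only that these exact letters are absent.

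Of a wider list of 107 other genes of the pathway, 91 were tested, 20 were higher, 24 were lower and 47 did not pass the test. The share called was 48.4%, against 41.8% of all genes, and the median log2 fold change was -0.00486. Of the ligands, IGF2 was the only one with reads. IGF1, INS and IGFBP1 had no reads in any library. A count of 0 in 1 library taken alone allows up to 3 expected reads, and 0 in all 6 libraries allows fewer per library. IGFBP5, IGFALS, INSRR, IGFBPL1 and IRS4 had at most 1, 1, 2, 4 and 6 reads. IGF2 had 6203, 6483 and 4408 reads in siNC and 8431, 7155 and 6338 in siTRIM28, or 420 ± 65.5 and 581 ± 39.2 CPM (SD, n = 3). In CPM all siTRIM28 libraries (535 to 604) lay above all siNC libraries (346 to 468), with siNC replicate 3 the lowest, and the log2 fold change was 0.47 (SE 0.0925, edgeR adjusted p = 0.00170). Its row overlaps ENSG00000284779 on the same strand, at 407 and 564 CPM with a log2 fold change of 0.47, so both rows may count the same reads.

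Genes that act on the IGFBPs outside the cell included the largest rise of the list. STC1, a stanniocalcin that inhibits the IGFBP4 protease PAPPA, had 1131, 1047 and 977 reads in siNC and 3605, 3137 and 3100 in siTRIM28. It rose 3.36-fold, from 77.9 ± 3.11 to 261 ± 3.76 CPM (SD, n = 3; log2 fold change 1.75, SE 0.0446, edgeR adjusted p = 2.94e-10). Its relative STC2 (0.40) and ADAM12 (0.60), a metalloprotease that cleaves IGFBP3, were also higher, while PAPPA (-0.29), PAPPA2 (-0.26), HTRA1 (-0.14) and ADAM9 (-0.01) did not pass the test. Of the 7 tested IGFBP proteases and their inhibitors, 3 rose and 0 fell, 42.9% called against 41.8% of all genes. Of the proteins that bind IGF2 mRNA, IGF2BP2 fell (-0.43) and IGF2BP3 rose (0.34).

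Between receptor and PI3K, 1 of 12 tested adaptors rose and 3 fell. SH2B3 had a log2 fold change of 0.55, and GRB2, which links receptors to Ras, had -0.60, the phosphatase PTPN11 -0.51 and CRKL -0.29. Of 8 tested inhibitors of the receptors and substrates, the phosphatase PTPN1 rose (0.32), and GRB10 (-0.32) and the ubiquitin ligase NEDD4 (-0.14) fell, NEDD4 without a call in 6 of 16 alternatives, among them those without siNC replicate 1 (edgeR adjusted p = 0.0706) and without siNC replicate 3 (0.0715). Of 11 tested PI3K subunits and lipid phosphatases, the regulatory subunit PIK3R3 rose (0.68), and the catalytic subunits PIK3CA (-0.37), PIK3CB (-0.33) and PIK3C2A (-0.32) and the phosphatase INPPL1 (-0.23) fell. The share called was 33.3% of the adaptors, 37.5% of the inhibitors and 45.5% of the PI3K group. Of all genes 41.8% were called, 21.3% higher and 20.5% lower, so these shares lay near the background.

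In the AKT axis 2 of 13 tested genes rose and 4 fell, 46.2% called against 41.8% of all genes. The glucose transporter SLC2A1 rose from 75.5 ± 1.39 to 126 ± 6.63 CPM (log2 fold change 0.74), and PHLPP2 rose (0.44), whereas PHLPP1, the related AKT phosphatase, fell from 6.96 ± 0.508 to 2.86 ± 0.219 CPM (-1.28, SE 0.149; SD, n = 3). GSK3B (-0.23) and TBC1D4 (-0.29), a brake on glucose transporter traffic, were lower, and AKT1 (-0.00) and AKT2 (0.04) did not pass the test. In the TSC and mTOR axis 3 of 14 rose and 3 fell, 42.9% called against the same 41.8%. DDIT4, an inhibitor of mTOR complex 1, rose (0.70), as did the activating GTPase RHEB (0.37) and MAPKAP1 (0.27), and TSC2, which restrains RHEB, fell (-0.82), as did AKT1S1 (-0.58) and the kinase RPS6KB1 (-0.41).

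Of the 4 FOXO factors, which insulin and IGF signalling keep out of the nucleus, 3 fell, where 20.5% of all genes were called lower. FOXO3 had 496, 579 and 507 reads in siNC and 214, 202 and 207 in siTRIM28, or 39.1 ± 3.11 and 16.6 ± 1.17 CPM (SD, n = 3; log2 fold change -1.24, SE 0.0814, edgeR adjusted p = 3.89e-07). FOXO4 had a log2 fold change of -0.88. FOXO1, on 30 to 59 reads, had -0.57 (edgeR adjusted p = 0.0383), and this call was not followed through the alternatives. FOXO6 had 0.68 on 10 to 22 reads and did not pass the test. Of 12 tested genes listed as FOXO targets, 6 rose and 1 fell, 58.3% called against 41.8% of all genes. BNIP3, a mitophagy receptor, rose from 264 ± 7.55 to 518 ± 13.0 CPM (0.97), and TRIB1 rose by 0.82, while TXNIP, an inhibitor of glucose uptake, fell from 40.2 ± 1.18 to 8.12 ± 0.961 CPM (SD, n = 3), 4.92-fold lower (-2.30, SE 0.0845). CCNG2, SESN1, FBXO32, CITED2 and CAT did not pass the test.

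IGF2R shares the sorting of lysosomal enzymes with M6PR, and the genes of that route were examined beside it. M6PR, the smaller mannose 6-phosphate receptor, had a log2 fold change of 0.18 (edgeR adjusted p = 0.0156), a call lost in 6 of 16 alternatives, among them those without siNC replicate 1 (edgeR adjusted p = 0.102), siNC replicate 2 (0.0850) and siTRIM28 replicate 3 (0.0964). The genes of the enzymes that make the mannose 6-phosphate tag fell: GNPTAB by 0.85 and GNPTG by 0.47, the subunits of the transferase, and NAGPA, the enzyme that uncovers the tag, by 1.47 on the log2 scale. NAGPA had 25, 33 and 32 reads in siNC and 8, 12 and 10 in siTRIM28. The adaptors GGA1 (0.07), GGA2 (0.07) and GGA3 (0.01) did not pass the test. Of the 7 tested genes of this route, 1 was called higher and 3 lower, 57.1% called against 41.8% of all genes. In the lower direction 20.5% of all genes were called.

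**Figure D5:**
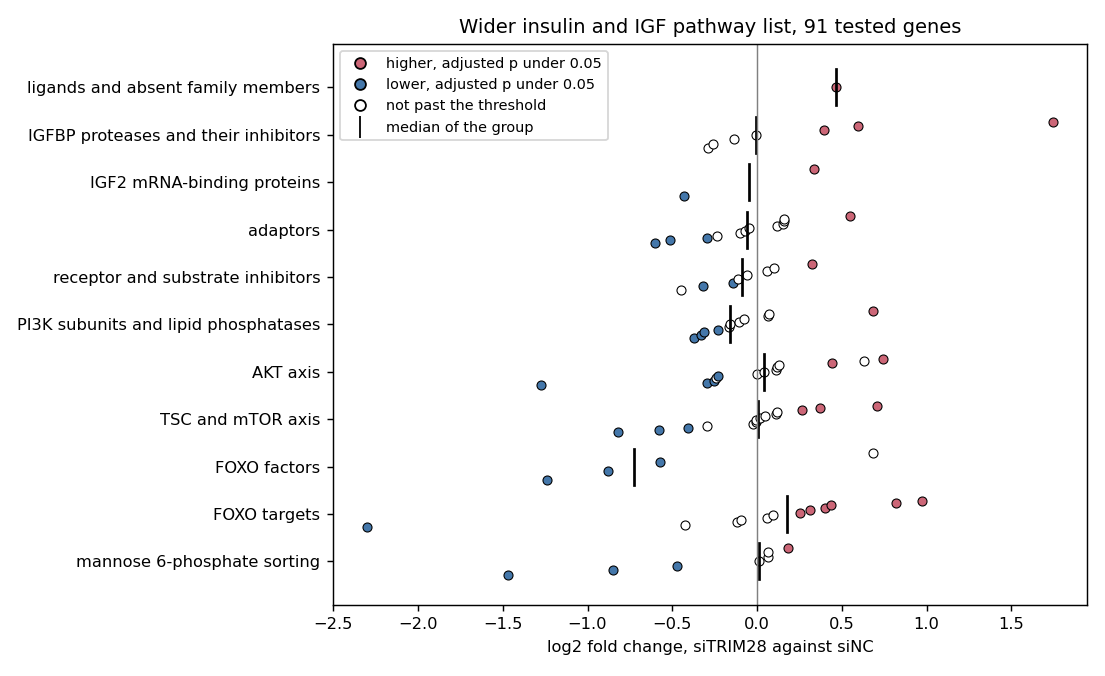
Log2 fold change of siTRIM28 against siNC (horizontal axis) for the 91 tested genes of the wider pathway list, by group, with red points for genes called higher, blue for genes called lower, white for those not past the adjusted p threshold of edgeR's test, and a line at each group's median. TXNIP at -2.30 and STC1 at 1.75 lie at the ends, and the FOXO factors have the lowest median (-0.72).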

How the data were processed

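RNA from T24 cells given siNC (n = 3) or siTRIM28 (n = 3) was analysed from the table of raw read counts per gene that the authors deposited. The submitters' processing notes name fastp 0.23.1, STAR 2.7.6a, featureCounts and GRCh38. The annotation release, the strand setting of the counting and any removal of duplicate reads are not given in the sources used here, and each of these can change the counts of overlapping genes. A second deposited file, RPKM values of the genes the authors called changed, was not used.

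Groups and replicates came from the sample labels. A gene was tested if 3 or more of the 6 libraries had 10 or more counts for it, using edgeR 4.0.16 (R 4.3.3; TMM scaling, library sizes taken after the filter, quasi-likelihood test, two-sided, Benjamini-Hochberg adjustment over all 18474 genes, threshold 0.05). SE is the absolute log2 fold change over the square root of F, and SD is over libraries. CPM are TMM-scaled, and RPKM divide them by the exon length in the table. Ratios of genes (prior count 2) were compared by an exact permutation test over libraries. DESeq2 1.42.0 and limma 3.58.1 (voom) were alternatives, as were other scalings, filters, left-out libraries and a replicate block. The test was tried on simulated counts. Library totals of 11712623 to 14018052 reads set the precision.

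Named genes are the 10 members, TRIM28, the ligands and absent family members, and in each other pathway group up to 2 genes with the largest rise and up to 2 with the largest fall among called genes with a mean of at least 50 counts. The markers, STC2, CRKL, PIK3C2A, INPPL1, GSK3B, MAPKAP1, RPS6KB1, FOXO1, NAGPA and the uncalled genes named beside them lie outside this rule and, the markers aside, were added after their values were seen. The calls of genes outside the rule were not followed gene by gene through the alternatives. A few listed genes are not reported here by name. The members and lists were chosen with earlier results of these data known.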

Additional observations from a re-analysis of the deposited data

How the results depend on the processing

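Calls for IGF2R, IGFBP3 and IGFBP4 were kept in all 16 alternatives. The number of genes of the 10 called lower was 1 in the reported analysis, 2 with RLE scaling, 3 when all genes with any read were tested, 3 with the replicate block, and 1 to 3 when 1 library was left out, where leaving out siTRIM28 replicate 1 gave 3 and leaving out replicate 3 of that group gave 2. The number called higher was 2 to 4. The sign of INSR turned, with log2 fold changes of 0.0109 with the closest pairs of libraries summed, 0.000352 with total counts only, 0.0156 with upper-quartile scaling and -0.0813 to 0.0535 when 1 library was left out (7.98e-05 without siNC replicate 1 and 0.0535 without siTRIM28 replicate 2), and none was past the threshold (edgeR adjusted p at least 0.617). The cause of these changes was not tested. The log2 differences of the 3 ratios kept their direction when 1 library was left out: 0.47 to 0.61 for IRS2 to IRS1, 0.25 to 0.42 for INSR to IGF1R and 0.83 to 1.09 for IGF2R to IGF1R. For INSR to IGF1R the exact permutation p was 0.2 with each siNC library left out in turn.

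Deviations of same-numbered libraries correlated at 0.066, -0.024 and 0.051 over 12828 genes, and those of different-numbered libraries at -0.074 to 0.049. These values do not settle whether replicate numbers pair the libraries. With the replicate block 7910 genes were called against 7723, and of the 10 genes IGF1R (-0.33, edgeR adjusted p = 0.0295) and IRS1 (-0.24, edgeR adjusted p = 0.0366) were called lower and IGFBP2 (edgeR adjusted p = 0.0580) was not called. Over all genes the count ranged from 5393 (adjusted p under 0.01) to 8252 (without siTRIM28 replicate 1), with 5878 by DESeq2. Upper-quartile scaling moved the share of calls that were higher from 51.1% to 56.6%, and testing all genes with any read moved the median log2 fold change of all genes from 0.02 to 0.07. IGFBP2, at 23 to 38 reads, and IGFBP7, at 1 to 5, were limited by depth.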
